A study of Mus musculus with 14 samples.

Results

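Nuclear receptors are transcription factors, many of which are switched on by small lipid-soluble ligands such as retinoic acid, fatty acids, oxysterols, bile acids, thyroid hormone and steroids. Without ligand, several of them sit on DNA with corepressors that carry histone deacetylases, and with ligand they exchange these for coactivators. Hepatic stellate cells (HSCs) store most of the body's vitamin A as retinyl esters, the source of the ligands of the retinoid receptors, and lose this store as they turn into myofibroblast-like cells in culture.

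The genes described here are the nuclear receptor family in primary mouse HSCs, given as a list of 44 genes. Of these, 42 had a probe set (a set of probes summarised to 1 value) that the array annotation pairs with that gene symbol alone, and each had exactly 1 such probe set among the 23410 probe sets tested. Nr1h2 and Nr2e3 had none and are not analysed here. HSCs of BalbC mice (Balb/cByJ in the study's methods) were seeded in DMEM with 10% FBS, unattached cells were washed off after 2 h, and control cells were collected 4 h (Ctrl4h, 3 arrays), 16 h (Ctrl16h, 2 arrays) and 64 h (Ctrl64h, 3 arrays) later. Cells given 2.5 mM valproic acid (VPA), an inhibitor of histone deacetylases, from the wash onwards were collected after 4 h (VPA4h, 3 arrays) and 64 h (VPA64h, 3 arrays), and this array series has no VPA group at 16 h. The study calls its replicates biological and independent, and all groups share the strain, the medium and culture on plastic without freshly isolated cells as a reference.

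Values are log2 expression levels, so a difference of 1 is a 2-fold change, and they measure a gene against the rest of its array. Array medians lay between 6.34 and 6.41, arrays of a group correlated at 0.9932 or above over all tested probe sets, and no pair from different groups correlated above 0.9859. The 14 stellate cell markers had a mean log2 level of 9.44 to 10.31 on the arrays, the 14 hepatocyte markers 4.97 to 5.87 and the 14 Kupffer cell and macrophage markers 5.53 to 6.07. For the 14 sinusoidal endothelial markers it was 6.08 to 6.80 and for 8 lymphocyte markers 4.59 to 5.07. The 11 markers of cholangiocytes, mesothelial cells and portal fibroblasts had 6.16 to 6.70. In such bulk samples fewer cells of a type and less RNA per cell cannot be told apart. The words rose and fell are kept for genes where limma gave an adjusted p under 0.05 and the change was at least 2-fold, and the words higher and lower for an adjusted p under 0.05 at any size.

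Of the 42 measured genes 10 rose or fell in at least 1 of 7 comparisons, where 15.6% of the tested probe sets did. These 10 were Rara, Rarb, Rarg, Nr4a1, Nr4a2, Esr1, Nr3c2, Thra, Nr1h3 and Nr2f2. At any size 31 were higher or lower in at least 1 comparison, where 75.3% of the tested probe sets were. The other 11 (Ppara, Pparg, Rxrg, Esr2, Nr3c1, Pgr, Nr1i2, Hnf4g, Nr2e1, Nr5a2 and Nr0b1) had no adjusted p under 0.05 in any of the 7 in the fit without pairing, and their largest difference was 0.354 on the log2 scale. Among those 11 the mean level of Nr3c1 lay at percentile 88.5 of the tested probe sets. The others lay between percentile 9 and percentile 34.7, low levels at which a change can be missed.

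**Figure D1:**
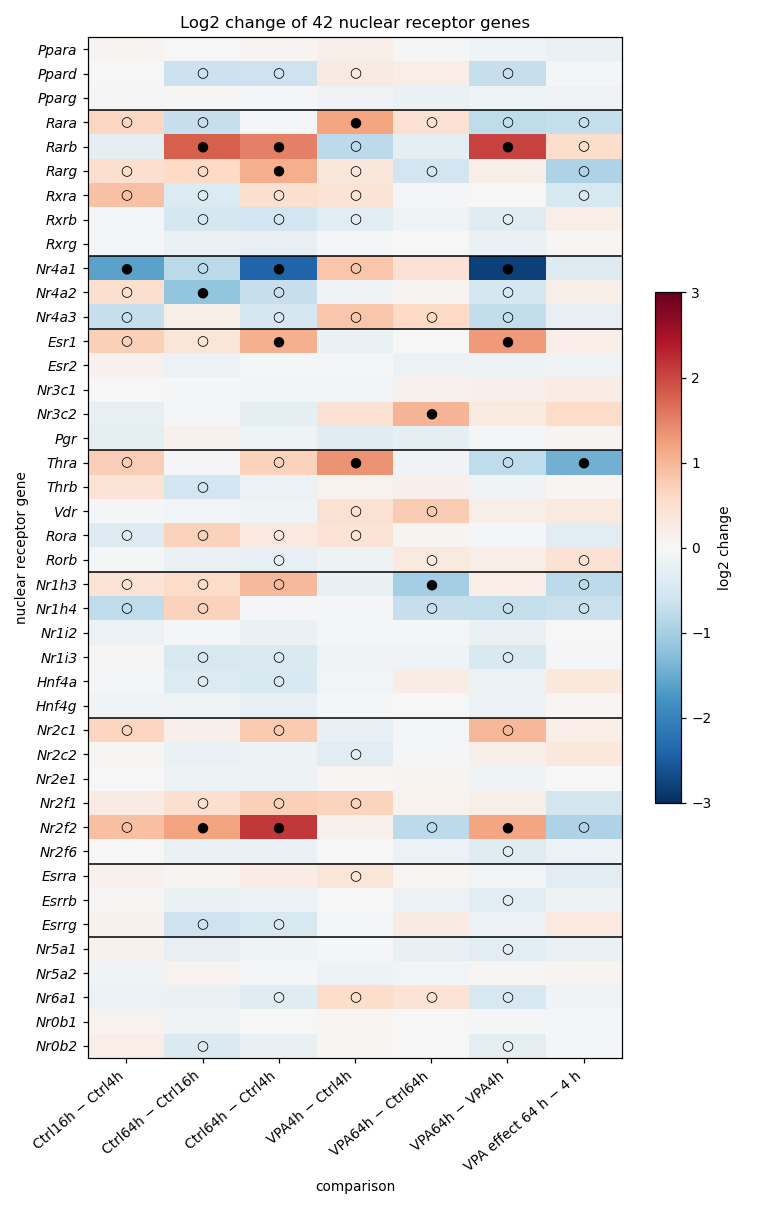
Log2 change (colour) of the 42 measured nuclear receptor genes (rows, ordered by receptor group, lines between groups) in the 7 comparisons (columns). Filled circles mark an adjusted p under 0.05 with a change of at least 2-fold, open circles an adjusted p under 0.05 with a smaller change. The filled circles lie in 10 rows, and the deepest blue is Nr4a1, which fell by 2.79 from VPA4h to VPA64h.

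From 4 to 16 h in control culture no member rose and 1 fell, Nr4a1, while 0.705% of the tested probe sets rose and 1.21% fell. At any size 9 members were higher and 4 lower, that is 31% against 20.1% of the tested probe sets. From 16 to 64 h Rarb and Nr2f2 rose and Nr4a2 fell, where 4.52% of the tested probe sets rose and 2.08% fell. At any size 45.2% of the members differed against 43.1%. Over the whole span from 4 to 64 h Rarb, Rarg, Esr1 and Nr2f2 rose and Nr4a1 fell, where 6.68% of the tested probe sets rose and 3.71% fell. At any size 47.6% of the members differed over that span against 56.7%. The shares of members that differed at any size rest on 13, 19 and 20 genes in these comparisons, in that order. Whether they depart from the shares of all tested probe sets was not tested, and probe sets were not matched for expression level. The median change of the members from 4 to 64 h was -0.13 beside -0.09 over all tested probe sets.

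After VPA for 4 h, Rara and Thra rose and no member fell, where 0.867% of the tested probe sets rose and 0.555% fell. At any size 12 members were higher and 3 lower, 35.7% of the members against 21.4%. With arrays centred on a Gapdh probe set the changes of all tested probe sets in this comparison moved by -0.331. After VPA for 64 h Nr3c2 rose and Nr1h3 fell, against a background of 1% of the tested probe sets up and 1.14% down. At any size 23.8% of the members differed against 24%. From 4 to 64 h within VPA culture Rarb, Esr1 and Nr2f2 rose and Nr4a1 fell, where 5.26% rose and 2.29% fell, and 42.9% differed at any size against 50.4%. When the VPA effect at 64 h was set against that at 4 h, Thra alone passed with a difference of at least 2-fold, and it was lower at 64 h, where 0.893% of the tested probe sets differed upward and 1.7% downward. At any size 9 members differed in this test, 21.4% against 15.9%.

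The retinoid receptors held the most members past 2-fold of any group, 3 of 6, while the NR4A group had 2 of 3. The retinoic acid receptors (RARs) Rara, Rarb and Rarg bind retinoic acid, and the retinoid X receptors (RXRs) Rxra, Rxrb and Rxrg are the common partners of RARs, PPARs and many other receptors. The 3 that rose were all RARs, and 5 of the 6 genes differed at any size. So did 5 of 5 thyroid hormone, vitamin D and ROR genes and 5 of 6 NR2C, NR2E and NR2F genes. The NR4A genes and the estrogen-related receptors had 3 of 3 each. Over all tested probe sets 15.6% rose or fell and 75.3% differed at any size in at least 1 of the 7 comparisons.

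Rarb, itself a classical retinoic acid response gene, measured 8.48, 8.93 and 8.48 in Ctrl4h, 8.39 and 8.30 in Ctrl16h, 10.19, 10.07 and 10.14 in Ctrl64h, 7.62, 7.95 and 7.98 in VPA4h and 9.85, 9.89 and 9.90 in VPA64h. All 64 h arrays lay above all earlier arrays, and the VPA arrays lay below the control arrays of the same time. Rarb rose 3.45-fold from 16 to 64 h (log2 change 1.79, 95% interval 1.51 to 2.07, limma adjusted p = 5.14e-08), 2.84-fold from Ctrl4h to Ctrl64h (log2 change 1.51, limma adjusted p = 2.98e-08) and 4.08-fold from VPA4h to VPA64h (log2 change 2.03, limma adjusted p = 1.82e-09). With VPA for 4 h it was lower by 0.78 on the log2 scale (difference -0.78, limma adjusted p = 0.000133), and with VPA for 64 h the difference was -0.26 (95% interval -0.51 to -0.01, limma adjusted p = 0.136). The difference between these VPA effects was 0.52 (limma adjusted p = 0.0452), and leaving out any 1 of 11 of the 14 arrays raised its adjusted p to between 0.0513 and 0.119.

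The promoter of Rarb is shown because it holds a DR5 element, a direct repeat of receptor binding motifs with a spacer of 5 bases that is the textbook binding site of RAR and RXR pairs. The window is the 250 bases before the RefSeq start, chr14:16575477-16575726 on the minus strand of GRCm38.p6, inside the annotated span of the gene. Capitals mark the match to GNTCANNNNNNGNTCA, which begins 52 bases before the start.
Rarb: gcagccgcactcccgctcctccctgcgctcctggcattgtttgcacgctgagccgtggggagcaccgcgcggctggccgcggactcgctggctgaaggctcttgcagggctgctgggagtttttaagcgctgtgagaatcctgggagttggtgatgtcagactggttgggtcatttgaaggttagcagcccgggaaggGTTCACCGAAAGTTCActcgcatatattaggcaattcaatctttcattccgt
Of the 40 members with a window in the RefSeq table only Rarb held this pattern on either strand, in 1 of the 13 windows of the retinoid receptors, and 0.776% of the 32851 windows of all genes held it. The match describes the letters and does not show binding in these cells.

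Rara measured 6.67, 6.69 and 6.85 in Ctrl4h, 7.40 and 7.32 in Ctrl16h, 6.83, 6.52 and 6.68 in Ctrl64h, 7.77, 7.97 and 7.99 in VPA4h and 7.23, 7.02 and 7.17 in VPA64h. The VPA arrays were above the controls of the same time without overlap, and the control at 16 h stood above those at 4 and 64 h. Rara rose 2.26-fold with VPA at 4 h (log2 change 1.17, 95% interval 0.96 to 1.38, limma adjusted p = 5.53e-07), and it was 0.46 higher with VPA at 64 h (limma adjusted p = 0.00255). The VPA effect was smaller at 64 h than at 4 h by 0.71 (difference -0.71, limma adjusted p = 0.002245). In control culture Rara was 0.62 higher at 16 h than at 4 h and then lower at 64 h than at 16 h (difference -0.68), ending at its 4 h level within the error (difference -0.06, 95% interval -0.27 to 0.15).

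Rarg measured 7.21, 7.08 and 7.03 in Ctrl4h, 7.71 and 7.50 in Ctrl16h, 8.18, 8.36 and 8.04 in Ctrl64h, 7.52, 7.41 and 7.41 in VPA4h and 7.59, 7.59 and 7.67 in VPA64h. The control arrays stepped up at each time without overlap, whereas the VPA arrays lay above the 4 h controls at 4 h and below the 64 h controls at 64 h. Rarg rose 2.12-fold from Ctrl4h to Ctrl64h (log2 change 1.09, 95% interval 0.89 to 1.29, limma adjusted p = 8.6e-08). With VPA it was 0.34 higher at 4 h (limma adjusted p = 0.0152) and differed by -0.58 at 64 h (limma adjusted p = 0.000293), and the difference of these effects was -0.92 (limma adjusted p = 0.000201). With a Gapdh probe set the 4 h effect of Rarg was 0.007. From VPA4h to VPA64h the difference was 0.17 (95% interval -0.03 to 0.37, limma adjusted p = 0.151).

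Among the RXRs, Rxra measured 8.06, 8.003 and 8.08 in Ctrl4h, 8.94 and 8.91 in Ctrl16h, 8.54, 8.50 and 8.52 in Ctrl64h, 8.41, 8.39 and 8.58 in VPA4h and 8.44, 8.52 and 8.40 in VPA64h. The 16 h arrays were the highest of all 14, and the 4 h controls the lowest. Rxra was 0.88 higher at 16 h than at 4 h (limma adjusted p = 3.16e-06) and 0.41 higher with VPA at 4 h (limma adjusted p = 0.000716), and at 64 h the VPA effect was -0.07 (95% interval -0.23 to 0.10). With a Gapdh probe set the 4 h effect of Rxra was 0.084. Its higher level at 64 than at 4 h, 0.47, turned to -0.08 when arrays were centred on a Gapdh probe set. Rxrb measured 7.71 to 7.82 in Ctrl4h, 7.17 to 7.22 in Ctrl64h, 7.43 to 7.51 in VPA4h and 6.99 to 7.19 in VPA64h, and was lower at 64 than at 4 h (difference -0.57, limma adjusted p = 1.05e-05) and with VPA at 4 h (difference -0.30, limma adjusted p = 0.00754). Rxrg ranged from 4.29 to 5.14 over the 14 arrays and differed in no comparison.

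**Figure D2:**
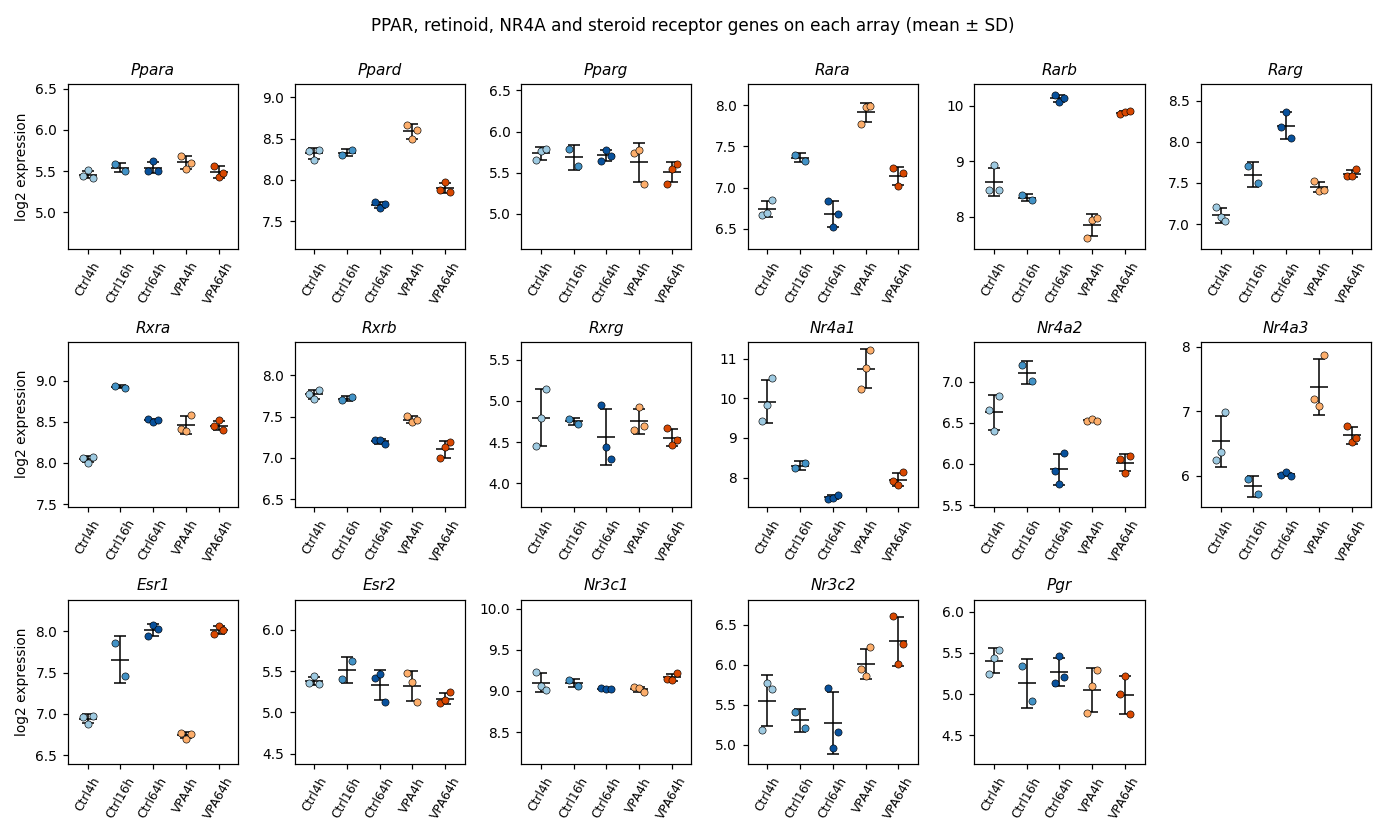
Log2 expression (vertical axes, each with its own range) of the 17 PPAR, retinoid, NR4A and steroid receptor genes in the 5 groups (horizontal axes). Points are single arrays and bars show the mean and SD of a group. Rarb and Esr1 were highest at 64 h, Rarg was highest in Ctrl64h, Nr4a1 was highest at 4 h, and Pparg stayed between 5.36 and 5.79 on all 14 arrays.

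The peroxisome proliferator-activated receptors (PPARs) bind fatty acids and their derivatives, and Pparg is known as a marker of the quiescent, fat-storing HSC. None of the 3 genes rose or fell in any of the 7 comparisons, where 15.6% of the tested probe sets did in at least 1. Pparg ranged from 5.36 to 5.79 and Ppara from 5.42 to 5.69 over the 14 arrays, and the change of Pparg from Ctrl4h to Ctrl64h was -0.03 (95% interval -0.26 to 0.21). Mean levels of Pparg and Ppara lay at percentiles 34.7 and 32.1 of the tested probe sets. At such low levels a change can be missed. Ppard measured 8.35, 8.24 and 8.36 in Ctrl4h, 8.30 and 8.36 in Ctrl16h, 7.73, 7.65 and 7.71 in Ctrl64h, 8.67, 8.49 and 8.61 in VPA4h and 7.88, 7.97 and 7.85 in VPA64h. All 64 h arrays of Ppard lay below all earlier ones, and the VPA arrays lay above the controls of the same time. Ppard was lower in Ctrl64h than in Ctrl4h (difference -0.62, 95% interval -0.79 to -0.46, limma adjusted p = 4.7e-06) and 0.27 higher with VPA at 4 h (limma adjusted p = 0.0188), a difference that turned to -0.06 when arrays were centred on a Gapdh probe set. The VPA difference at 64 h was 0.20 (limma adjusted p = 0.0686).

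The NR4A receptors Nr4a1, Nr4a2 and Nr4a3 are orphan receptors made within minutes to hours of a stimulus, as immediate early genes. All 3 were lower at 64 h than at 4 h in control culture and in VPA culture, but for Nr4a3 in control culture the difference, -0.51, was -0.28 (adjusted p of 0.2005) without replicate 3 of Ctrl4h, and without any 1 of the Ctrl64h arrays its adjusted p was 0.0565 to 0.0688. Nr4a1 measured 9.41, 9.83 and 10.51 in Ctrl4h, 8.23 and 8.37 in Ctrl16h, 7.46, 7.48 and 7.57 in Ctrl64h, 10.24, 10.76 and 11.22 in VPA4h and 7.91, 7.80 and 8.13 in VPA64h. The 4 h arrays were the highest and the most spread, and the control groups did not overlap each other. Nr4a1 fell 3.06-fold from 4 to 16 h (log2 change -1.61, 95% interval -2.17 to -1.06, limma adjusted p = 0.000317), 5.32-fold from Ctrl4h to Ctrl64h (log2 change -2.41, limma adjusted p = 3.02e-07) and 6.93-fold from VPA4h to VPA64h (log2 change -2.79, limma adjusted p = 8.35e-08).

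With VPA at 4 h Nr4a1 was 0.82 higher (95% interval 0.33 to 1.32, limma adjusted p = 0.0168), but the lowest VPA4h array, 10.24, lay below the highest Ctrl4h array, 10.51. Arrays of the same number and time were taken as pairs, and in the 3 pairs at 4 h Nr4a1 was higher with VPA by 0.827, 0.932 and 0.716. With the pairs as a block within each time the adjusted p was 7.09e-05 at 4 h, and at 64 h, where the difference was 0.44, it was 0.00344 beside 0.198 without the block. Unpaired, without replicate 3 of Ctrl4h, the VPA effect was 1.12, and without replicate 3 of VPA4h it was 0.58 with an adjusted p of 0.1005. Without replicate 1 or replicate 2 of Ctrl4h the adjusted p in limma was 0.0949 and 0.0601. With all 14 arrays it was 0.0641 with the trend and robust settings of limma and 0.0534 with all probe sets tested. Ordinary least squares gave 0.0854. Nr4a3 measured 6.25, 6.37 and 6.99 in Ctrl4h, 5.95 and 5.73 in Ctrl16h, 6.01, 6.05 and 6.01 in Ctrl64h, 7.18, 7.08 and 7.87 in VPA4h and 6.77, 6.52 and 6.59 in VPA64h. Here the VPA arrays lay above the controls at both times without overlap. Nr4a3 was 0.84 higher with VPA at 4 h (limma adjusted p = 0.00379) and 0.60 higher at 64 h (limma adjusted p = 0.0304), both below 2-fold. Nr4a2 measured 6.66, 6.40 and 6.82 in Ctrl4h, 7.21 and 7.01 in Ctrl16h, 5.91, 5.76 and 6.13 in Ctrl64h, 6.53, 6.55 and 6.52 in VPA4h and 6.06, 5.89 and 6.09 in VPA64h. It was highest at 16 h, when the other NR4A genes were already low, and the VPA arrays overlapped the controls at both times. Nr4a2 fell 2.26-fold from 16 to 64 h (log2 change -1.17, 95% interval -1.45 to -0.90, limma adjusted p = 2.7e-06), and its VPA effect was -0.10 at 4 h and 0.08 at 64 h, with 95% intervals of -0.34 to 0.15 and -0.16 to 0.32.

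The promoters of the NR4A genes are shown because of the letters they share. Each of the 3 windows of 250 bases before the RefSeq start held 4 copies of TGACG, the core letters of the cyclic AMP response element, on one strand or the other, and 0.137% of all windows held 4 or more. The limit of 4 is the count in these 3 windows themselves, and windows were not matched for base composition. At least 1 copy stood in 17.8% of all windows and in 21.3% of the 61 windows of the receptor genes. None of the NR4A windows held the full palindrome TGACGTCA, which 1.55% of all windows held and which contains TGACG on both strands. The window of Nr4a1, chr15:101266596-101266845 on the plus strand, lies inside the annotated span of its gene, and that of Nr4a2, chr2:57124004-57124253 on the minus strand, lies outside the annotated gene (both GRCm38.p6). Capitals mark TGACG or its reverse complement CGTCA.
Nr4a1: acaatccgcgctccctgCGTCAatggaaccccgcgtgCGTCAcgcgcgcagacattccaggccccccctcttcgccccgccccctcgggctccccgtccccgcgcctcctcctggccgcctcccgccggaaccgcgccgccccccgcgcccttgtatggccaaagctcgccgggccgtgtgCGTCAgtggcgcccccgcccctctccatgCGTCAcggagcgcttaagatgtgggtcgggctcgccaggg
Nr4a2: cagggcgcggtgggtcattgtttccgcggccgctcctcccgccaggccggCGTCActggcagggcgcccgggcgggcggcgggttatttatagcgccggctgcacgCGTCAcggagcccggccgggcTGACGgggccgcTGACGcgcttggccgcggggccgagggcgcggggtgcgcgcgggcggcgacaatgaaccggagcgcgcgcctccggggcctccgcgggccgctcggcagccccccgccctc
In Nr4a1 the matches begin 233, 213, 69 and 40 bases before the start, in Nr4a2 200, 144, 123 and 111 bases, and in Nr4a3 231, 213, 205 and 147 bases.

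The steroid receptors were represented by the estrogen receptors Esr1 and Esr2, the glucocorticoid receptor Nr3c1, the mineralocorticoid receptor Nr3c2 and the progesterone receptor Pgr. Esr1 and Nr3c2 moved, and the other 3 differed in no comparison of the fit without pairing. Nr3c1 ranged from 8.99 to 9.23 over the 14 arrays, Esr2 from 5.11 to 5.63 and Pgr from 4.76 to 5.54. Pgr was lower with VPA in all 3 pairs at both times, and with the pairs as a block the differences of -0.35 at 4 h and -0.28 at 64 h had adjusted p-values of 0.0161 and 0.0474 in limma.

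Esr1 measured 6.97, 6.88 and 6.98 in Ctrl4h, 7.86 and 7.45 in Ctrl16h, 7.94, 8.08 and 8.03 in Ctrl64h, 6.77, 6.70 and 6.75 in VPA4h and 7.97, 8.06 and 8.02 in VPA64h. The rise over time showed without overlap in both cultures, and at 64 h the control and VPA arrays were interleaved. Esr1 rose 2.11-fold from Ctrl4h to Ctrl64h (log2 change 1.08, 95% interval 0.87 to 1.28, limma adjusted p = 1.05e-07) and 2.43-fold from VPA4h to VPA64h (log2 change 1.28, limma adjusted p = 2.28e-08), and most of the control change, 0.72, was present by 16 h. The VPA effect at 64 h was 0.00 (95% interval -0.20 to 0.20). Nr3c2 measured 5.18, 5.77 and 5.70 in Ctrl4h, 5.41 and 5.21 in Ctrl16h, 5.71, 4.95 and 5.16 in Ctrl64h, 5.94, 5.86 and 6.22 in VPA4h and 6.61, 6.01 and 6.26 in VPA64h. All VPA arrays lay above all control arrays, and the control arrays were more spread than the VPA effect at 4 h. Nr3c2 rose 2.03-fold with VPA at 64 h (log2 change 1.02, 95% interval 0.60 to 1.43, limma adjusted p = 0.00119), and at 4 h the difference was 0.46 (limma adjusted p = 0.123, and 0.0161 with the pairs as a block). The VPA effects at 64 and 4 h differed by 0.56 (limma adjusted p = 0.206, and 0.0403 with the pairs as a block). The change at 64 h was 0.86 without replicate 2 of Ctrl64h, 0.96 without replicate 3 of Ctrl64h and 0.86 without replicate 1 of VPA64h, and so fell short of 2-fold when any 1 of these arrays was left out. It was also under 2-fold with arrays centred on their median (0.99) or on a Gapdh probe set (0.90).

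The counts of the 4 groups are set side by side here. In control culture from 4 to 64 h 2 of 6 retinoid receptors and 1 of 5 steroid receptors rose, 1 of 3 NR4A genes fell and none of 3 PPARs did either, where 6.68% of the tested probe sets rose and 3.71% fell. With VPA at 4 h 5 of 6 retinoid receptors differed at any size, 3 higher and 2 lower, and 2 of 3 NR4A genes and 1 of 3 PPARs were higher, while none of 5 steroid receptors differed (Nr3c2 and Pgr did with the pairs as a block), where 21.4% of the tested probe sets differed. At 64 h with VPA 2 of 6 retinoid receptors, 1 of 3 NR4A genes and 1 of 5 steroid receptors differed at any size and no PPAR did, where 24% of the tested probe sets differed. With the pairs as a block Nr4a1 and Pgr differed at 64 h too. The median VPA effect at 4 h was 0.15 over the PPARs, 0.15 over the retinoid receptors, 0.82 over the NR4A genes and -0.08 over the steroid receptors, beside -0.03 over all tested probe sets. These groups hold 3 to 6 genes each, and no test of a difference between groups was made.

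**Figure D3:**
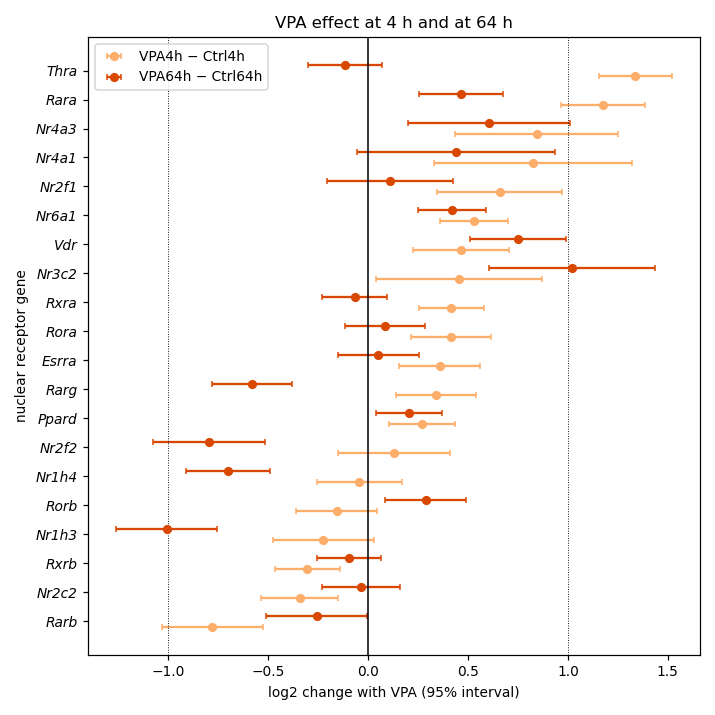
Log2 change with VPA (horizontal axis) at 4 h (light orange) and at 64 h (dark orange) for the 20 nuclear receptor genes with an adjusted p under 0.05 at either time, ordered by the 4 h effect, with 95% intervals as bars. Dotted lines mark a 2-fold change. Thra and Rara exceed 2-fold at 4 h, and Nr2f2, Nr1h4 and Nr1h3 lie below 0 at 64 h with 4 h intervals that include 0.

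Of the thyroid hormone receptors, Thra had the largest VPA effect at 4 h of the 42 members in the values as deposited, while with a Gapdh probe set that of Rarb was larger (-1.11 against 1.01). Thra measured 7.23, 7.11 and 7.12 in Ctrl4h, 7.82 and 7.98 in Ctrl16h, 7.90, 7.89 and 7.72 in Ctrl64h, 8.40, 8.52 and 8.56 in VPA4h and 7.67, 7.67 and 7.83 in VPA64h. The VPA4h arrays were the highest of all 14 and the Ctrl4h arrays the lowest, and at 64 h the control and VPA arrays overlapped. Thra rose 2.53-fold with VPA at 4 h (log2 change 1.34, 95% interval 1.15 to 1.52, limma adjusted p = 7.18e-08), and at 64 h the difference was -0.11 (95% interval -0.30 to 0.07). The difference of these effects was -1.45 (95% interval -1.71 to -1.19, limma adjusted p = 2.56e-06). In control culture Thra was 0.75 higher at 16 h than at 4 h. Thra overlaps the clock gene Nr1d1 on the opposite strand, and whether the 2 probe sets share signal was not tested. Thrb, the other thyroid hormone receptor, was lower at 64 than at 16 h (difference -0.57) and did not differ with VPA.

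The vitamin D receptor Vdr, known to restrain fibrotic gene programs in HSCs, measured 5.34, 5.52 and 5.68 in Ctrl4h, 5.30 and 5.64 in Ctrl16h, 5.32, 5.56 and 5.30 in Ctrl64h, 5.95, 6.12 and 5.86 in VPA4h and 6.16, 6.10 and 6.17 in VPA64h. All VPA arrays of Vdr lay above all control arrays. It was 0.46 higher with VPA at 4 h (limma adjusted p = 0.006505) and 0.75 higher at 64 h (limma adjusted p = 0.000159), below 2-fold at both times. With a Gapdh probe set these effects of Vdr were 0.132 and 0.628. Rora, a receptor that activates clock genes, was 0.41 higher with VPA at 4 h (limma adjusted p = 0.00397), and 0.082 with a Gapdh probe set. Its small difference between Ctrl4h and Ctrl64h, 0.29, turned to -0.08 with arrays centred on housekeeping genes and to -0.27 with a Gapdh probe set. Rorb was 0.29 higher with VPA at 64 h (limma adjusted p = 0.0382).

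The receptors for sterols and bile acids, Nr1h3 and Nr1h4, were lower with VPA at 64 h. Nr1h3 encodes the oxysterol receptor LXRα, which switches on genes of cholesterol efflux. It measured 6.08, 5.85 and 6.002 in Ctrl4h, 6.28 and 6.51 in Ctrl16h, 6.94, 7.19 and 6.75 in Ctrl64h, 5.80, 5.83 and 5.63 in VPA4h and 5.92, 6.13 and 5.80 in VPA64h. The Ctrl64h arrays were the highest, and the VPA64h arrays overlapped the Ctrl4h arrays. Nr1h3 fell 2.01-fold with VPA at 64 h (log2 change -1.01, 95% interval -1.26 to -0.76, limma adjusted p = 1.61e-05), with a difference of -0.22 at 4 h (limma adjusted p = 0.237). The VPA effects at 64 and 4 h differed by -0.78 (limma adjusted p = 0.00426). The change at 64 h was -0.89 without replicate 2 of Ctrl64h, -0.996 without replicate 1 of VPA64h, -0.93 without replicate 3 of VPA64h and -0.86 with arrays centred on housekeeping genes, each short of 2-fold. In control culture Nr1h3 was 0.98 higher at 64 h than at 4 h, and its higher level at 16 h, 0.42, turned to -0.005 with a Gapdh probe set.

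Nr1h4 encodes the bile acid receptor FXR. It measured 8.16, 8.03 and 8.16 in Ctrl4h, 7.50 and 7.22 in Ctrl16h, 8.03, 8.26 and 7.89 in Ctrl64h, 8.06, 8.07 and 8.09 in VPA4h and 7.36, 7.38 and 7.34 in VPA64h. The control dipped at 16 h and was back at 64 h, and the VPA64h arrays lay at the level of the dip. The VPA difference at 64 h was -0.70 (95% interval -0.91 to -0.49, limma adjusted p = 8.93e-05), at 4 h it was -0.04 (95% interval -0.25 to 0.17), and the effects differed by -0.66 (limma adjusted p = 0.00399). Nr1i3 and Hnf4a, receptors best known from hepatocytes, were lower at 64 than at 4 h in control culture (differences -0.43 and -0.47). Over the same span 7 of 14 hepatocyte markers were lower and 1 of these, Alb, fell, and the mean of the list ranged over 5.44 to 5.87 in Ctrl4h and 5.07 to 5.55 in Ctrl64h. At any size 56.7% of the tested probe sets differed over that span. With VPA at 64 h no hepatocyte marker and 2 of 14 Kupffer cell and macrophage markers differed, both lower, with list means of 4.97 to 5.52 and 5.53 to 5.88 in VPA64h. The part of these cell types in the receptor values was not tested.

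Nr2f2 (COUP-TFII), an orphan receptor of mesenchymal and endothelial cells, had the largest rise of the family in control culture. It measured 7.86, 8.04 and 8.06 in Ctrl4h, 8.96 and 8.80 in Ctrl16h, 10.07, 10.31 and 9.92 in Ctrl64h, 7.93, 8.17 and 8.23 in VPA4h and 9.17, 9.61 and 9.14 in VPA64h. The control groups climbed without overlap, the 4 h control and VPA arrays overlapped, and the VPA64h arrays lay below all Ctrl64h arrays. Nr2f2 rose 4.33-fold from Ctrl4h to Ctrl64h (log2 change 2.11, 95% interval 1.83 to 2.39, limma adjusted p = 2.33e-09), of which 0.90 was present by 16 h, and 2.28-fold from VPA4h to VPA64h (log2 change 1.19, limma adjusted p = 1.94e-06). It was lower with VPA at 64 h (difference -0.79, limma adjusted p = 0.00037), with a 4 h difference of 0.13 (95% interval -0.15 to 0.41), and the effects differed by -0.92 (limma adjusted p = 0.0028). Of 14 sinusoidal endothelial markers 7 were lower and 1 was higher with VPA at 64 h, with 1 of the lower ones past 2-fold, and their mean was 6.32 to 6.60 in Ctrl64h and 6.08 to 6.10 in VPA64h. At any size 24% of the tested probe sets differed in that comparison. The part of endothelial cells in the value of Nr2f2 was not tested. Nr2f1, its closest relative, was 0.71 higher at 64 than at 4 h in control culture and 0.66 higher with VPA at 4 h (limma adjusted p = 0.00349). Its VPA effects at 64 and 4 h differed by -0.55, with an adjusted p of 0.0915 in limma and 0.0327 with the pairs as a block.

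**Figure D4:**
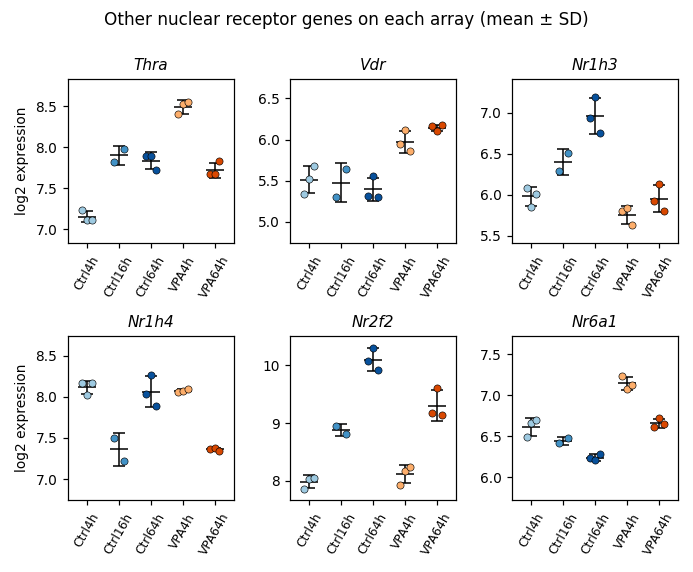
Log2 expression (vertical axes, each with its own range) of Thra, Vdr, Nr1h3, Nr1h4, Nr2f2 and Nr6a1 in the 5 groups (horizontal axes). Points are single arrays and bars show the mean and SD. Thra is highest in VPA4h, Vdr is higher in both VPA groups than in any control, and Nr1h3, Nr1h4 and Nr2f2 are lower in VPA64h than in Ctrl64h.

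Nr6a1 (GCNF), an orphan repressor known from germ cells, was higher with VPA at both times. It measured 6.49, 6.66 and 6.69 in Ctrl4h, 6.41 and 6.48 in Ctrl16h, 6.23, 6.21 and 6.28 in Ctrl64h, 7.23, 7.08 and 7.12 in VPA4h and 6.61, 6.72 and 6.66 in VPA64h, and the VPA arrays lay above the controls of the same time. The differences were 0.53 at 4 h (limma adjusted p = 0.000128) and 0.42 at 64 h (limma adjusted p = 0.00114). Among the orphan receptors Nr2c1 and Nr2c2, Nr2c1 was 0.79 higher at 64 than at 4 h in control culture and 0.999 higher in VPA culture, just under 2-fold, and Nr2c2 was lower with VPA at 4 h (difference -0.34). Of the estrogen-related receptors, which act on energy metabolism, Esrra was 0.36 higher with VPA at 4 h (limma adjusted p = 0.0118), and 0.028 with a Gapdh probe set. Esrrg was lower at 64 than at 4 h in control culture (difference -0.48). Esrrb, Nr2f6, Nr5a1 and Nr0b2 were lower at 64 h than at 4 h in VPA culture, by less than 2-fold.

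Genes that make or clear the ligands, and genes known to respond to each receptor, were counted from fixed lists. Of 16 measured enzymes that make or clear ligands 4 rose and 1 fell from Ctrl4h to Ctrl64h. Over all tested probe sets 6.68% rose and 3.71% fell in that comparison. Aldh1a1, which oxidises retinaldehyde to retinoic acid, measured 10.21, 10.51 and 10.26 in Ctrl4h, 9.69 and 9.32 in Ctrl16h and 12.37, 12.39 and 12.35 in Ctrl64h, and the 64 h arrays stood far above all earlier ones. It rose by 2.87 on the log2 scale from 16 to 64 h. Aldh1a2, the other main enzyme of this step, rose by 2.51 from Ctrl4h to Ctrl64h and fell with VPA at 64 h (log2 change -1.01). Hsd11b1, which regenerates active glucocorticoid, fell from 4 to 16 h (log2 change -1.09) and rose by 2.12 from 16 to 64 h. Dhrs3, which reduces retinaldehyde back to retinol and is induced by retinoic acid, measured 8.40, 8.65 and 8.09 in Ctrl4h, 7.25 and 6.94 in Ctrl16h, 10.15, 10.04 and 10.05 in Ctrl64h, 8.07, 8.63 and 7.97 in VPA4h and 7.98, 7.75 and 8.19 in VPA64h. The Ctrl64h arrays were the highest, and the VPA64h arrays lay near the level at 4 h. It fell with VPA at 64 h (log2 change -2.11, limma adjusted p = 3.825e-07). Rdh10, the retinol dehydrogenase, fell from Ctrl4h to Ctrl64h (log2 change -1.74), and Ch25h, which makes an oxysterol, fell from 4 to 16 h (log2 change -1.55) and with VPA at 4 h (log2 change -1.43). Rdh10 and Ch25h were named after their values were seen.

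Of 10 measured retinoic acid response genes, a list that holds Rarb and Dhrs3, 3 rose from 16 to 64 h (Rarb, Dhrs3 and Rarres2) and none fell, with a median of 0.36 beside -0.07 over all tested probe sets. In that interval 4.52% of the tested probe sets rose and 2.08% fell. From 4 to 16 h 2 of the 10 fell, Dhrs3 and Rarres2 (log2 changes -1.28 and -1.75), where 1.21% of the tested probe sets fell. From Ctrl4h to Ctrl64h 2 rose, Rarb and Dhrs3, and none fell, where 6.68% of the tested probe sets rose and 3.71% fell. Rarres2 did not rise over that whole span. With VPA at 64 h 6 of the 10 were lower and none was higher, and Dhrs3 and Rarres2 fell (log2 changes -2.11 and -1.15), with a median of -0.49 beside 0.00. There 24% of the tested probe sets differed at any size and 1.14% fell. With VPA at 4 h none rose or fell and 2 were lower, where 21.4% of the tested probe sets differed at any size.

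Of 11 measured PPAR response genes 6 rose from 16 to 64 h and none fell, where 4.52% of the tested probe sets rose and 2.08% fell. The median of the list was 1.04 beside -0.07 over all tested probe sets. Cpt1a, which carries fatty acids into mitochondria, rose by 1.62 from Ctrl4h to Ctrl64h and by 1.75 with VPA at 4 h (limma adjusted p = 1.075e-08). Cd36, a fatty acid uptake receptor, rose by 1.65 and Pdk4, a kinase that spares glucose, by 1.31 from 16 to 64 h. Acadm, an enzyme of fatty acid oxidation, rose by 1.39 from Ctrl4h to Ctrl64h and was 0.95 higher with VPA at 4 h. With VPA at 64 h none of the 11 rose or fell, with 3 higher and 3 lower, where 24% of the tested probe sets differed at any size. With arrays centred on housekeeping genes or on a Gapdh probe set 2 of the 11, not 6, rose from 16 to 64 h. The median of the list from Ctrl4h to Ctrl64h, 0.31, turned to -0.06 with arrays centred on housekeeping genes and to -0.24 with a Gapdh probe set.

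Of 9 LXR response genes 4 fell from 4 to 16 h, where 1.21% of the tested probe sets fell. From Ctrl4h to Ctrl64h 3 fell and 1 rose, where 3.71% fell and 6.68% rose. The median of the list over that span was -0.81 beside -0.09 over all tested probe sets. Abca1 and Abcg1, transporters of cholesterol efflux, fell from Ctrl4h to Ctrl64h (log2 changes -1.32 and -1.81), and Scd1, a fatty acid desaturase, rose by 2.20. Apoe, the apolipoprotein that carries cholesterol from cells, measured 12.55, 12.60 and 12.54 in Ctrl4h, 10.72, 11.08 and 10.64 in Ctrl64h, 12.51, 12.71 and 12.49 in VPA4h and 9.65, 9.82 and 9.51 in VPA64h. The 4 h groups overlapped, and the VPA64h arrays lay below all others. Apoe fell with VPA at 64 h (log2 change -1.15, limma adjusted p = 3.81e-06), and 5 of the 9 genes were lower in that comparison and none was higher. At any size 24% of the tested probe sets differed there.

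**Figure D5:**
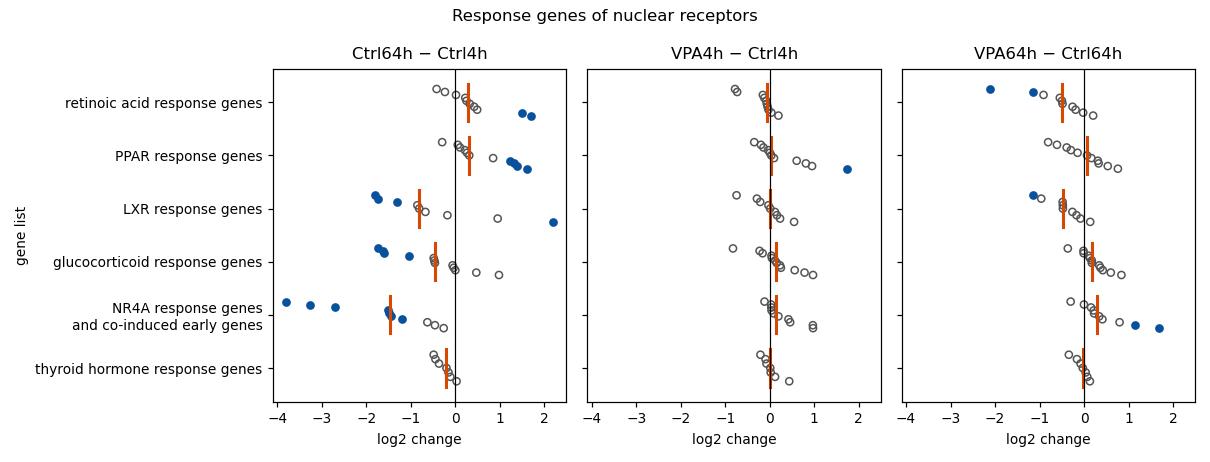
Log2 change (horizontal axes) of the measured response genes of 6 lists (vertical axis) from Ctrl4h to Ctrl64h (left), with VPA at 4 h (middle) and with VPA at 64 h (right). Each point is a gene, filled points rose or fell past 2-fold with an adjusted p under 0.05, and orange bars are list medians. All 10 points of the NR4A and early gene list lie to the left of 0 in the left panel (median -1.47), and those of the retinoic acid list mostly to the left in the right panel (median -0.49).

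Of 12 glucocorticoid response genes 4 fell and none rose from Ctrl4h to Ctrl64h, where 3.71% of the tested probe sets fell and 6.68% rose. The receptor probe set itself, Nr3c1, differed by -0.07 (95% interval -0.24 to 0.09). Errfi1, Ddit4 and Mt2 were among the 4 (log2 changes -1.73, -1.61 and -1.64), and Glul, which makes glutamine, rose by 1.40 from 16 to 64 h. With VPA at 64 h none of the 12 rose or fell and 5 were higher, where 24% of the tested probe sets differed at any size. Of 10 early genes that are induced together with the NR4A genes or respond to them 7 fell from Ctrl4h to Ctrl64h, all 10 were lower and none was higher. In that comparison 3.71% of the tested probe sets fell and 56.7% differed at any size. The transcription factor genes Egr2, Fosb, Egr1 and Junb fell (log2 changes -3.80, -3.27, -2.71 and -1.49). Egr1 and Egr2 rose with VPA at 64 h, by 1.69 and 1.15. Of 7 thyroid hormone response genes none rose or fell in any comparison, where 15.6% of the tested probe sets did in at least 1. At that share a count of none among 7 genes says little. Klf9 and Bcl3 had the largest differences, -0.68 from 4 to 16 h and -0.63 from VPA4h to VPA64h. Of 12 measured coregulators Hdac3, a deacetylase of corepressor complexes, rose by 1.08 from Ctrl4h to Ctrl64h (0.71 with housekeeping genes and 0.52 with a Gapdh probe set, both under 2-fold), and Carm1, an arginine methyltransferase and coactivator, fell by 1.20 from 16 to 64 h. With VPA no coregulator rose or fell, with 6 of 12 different at any size at 4 h and 2 at 64 h. The shares over all tested probe sets were 21.4% at 4 h and 24% at 64 h. Comparisons that share control arrays are not independent, so the values above are given side by side and their likeness was not tested.

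Scaling decided some directions over time. The reference genes were themselves not flat. From Ctrl4h to Ctrl64h 6 of 10 housekeeping genes were higher, 2 of them past 2-fold, and 1 was lower. Their median change was 0.27 beside -0.09 over all tested probe sets. With VPA at 64 h 4 were lower and 1 was higher. Centring on genes that are higher at 64 h lowers all other values there, and which scaling is nearer the truth was not tested. From Ctrl4h to Ctrl64h 2 members rose and 2 fell with arrays centred on housekeeping genes, and 1 rose and 7 fell with a Gapdh probe set, beside 4 and 1 in the values as deposited. From VPA4h to VPA64h the same settings gave 1 rise with 5 falls and 1 rise with 6 falls, beside 3 and 1. Of the 104 differences of members at any size over the 7 comparisons, 4 turned their direction with a Gapdh probe set, in Ppard, Rxra, Rora and Nr1h3, 1 of them, in Rora, also with housekeeping genes, and none with arrays centred on their median. Beside Nr3c2 and Nr1h3, 6 other changes no longer reached 2-fold under these settings, and none of them reversed. With a Gapdh probe set the VPA effect on Rara at 4 h was 0.84 and the change of Rarb from Ctrl4h to Ctrl64h 0.95. Rarg and Esr1 from Ctrl4h to Ctrl64h, and Esr1 and Nr2f2 from VPA4h to VPA64h, fell short of 2-fold with either housekeeping genes or a Gapdh probe set. Of the list genes named above, Aldh1a2 and Rarres2 with VPA at 64 h also fell short of 2-fold with housekeeping genes (-0.86 and -0.996), and Acadm from Ctrl4h to Ctrl64h with a Gapdh probe set (0.84).

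Of the 104 differences at any size 27 lost an adjusted p under 0.05 when 1 array was left out. With VPA these were the 4 h effects of Ppard, Rarg, Nr4a1, Nr2c2 and Esrra, the 64 h effects of Nr4a3 and Rorb and the difference of the effects for Rarb and Rorb. In control culture they were those of Rarg, Nr4a2, Nr4a3, Rora and Nr1h3 from 4 to 16 h, of Nr4a1, Esr1, Thrb, Nr1h3, Hnf4a, Nr2f1 and Nr0b2 from 16 to 64 h and of Nr4a3, Rora and Rorb from 4 to 64 h. In VPA culture they were those of Esrrb, Nr5a1 and Nr0b2 from 4 to 64 h. Of the 104 differences 3 moved by over 1.5 times. These were Nr4a3 from 4 to 64 h, given above, Esr1 from 16 to 64 h (0.36, with 0.56 without replicate 1 of Ctrl16h and 0.15 without replicate 2) and Rora from 4 to 16 h (-0.395, with -0.25 without replicate 2 of Ctrl16h).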

How the data were processed

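Total RNA of 14 HSC cultures was hybridised to Affymetrix Mouse Gene 1.0 ST arrays, 1 array per culture. The authors deposited 1 table of log2 values made with RMA (background correction, quantile normalisation and probe summarisation). Their notes name Affymetrix Expression Console and their methods GeneSpring GX, without further settings in the sources used here. Quantile normalisation removes changes shared by most genes.

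The deposited log2 values were used unchanged. Groups came from the sample titles. Of 35557 probe sets 23410 with a gene symbol were tested, and genes were named from probe sets with 1 symbol, taking the one of highest mean per gene. All 5 groups were fitted together with limma (version 3.58.1, R 4.3.3), with 9 residual and 6.52 prior degrees of freedom, two-sided, with Benjamini-Hochberg adjustment over the tested probe sets of each of 7 contrasts. The fit was tested on simulated data. The study numbers its HSC isolations, and deviations from the group means of control and VPA arrays of the same number correlated at 0.139 to 0.279 in the 3 pairs at 4 h and at 0.158 to 0.171 in the 3 pairs at 64 h, beside at most 0.023 for other numbers. They were taken as pairs within a time, and the 12 arrays at 4 and 64 h were refitted with the pair as a block, an alternative chosen after seeing the data. Calls combined the limits of the study's methods, 2-fold and an adjusted p under 0.05.

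The members and lists were chosen with earlier results of these data known. All members of the PPAR, retinoid, NR4A and steroid groups and every other member called were described in full, the rest by count or in brief. Of each list up to 4 called genes of largest change were named, or 2 where none was called. List genes without a probe set of their own are not reported here. Promoter windows (250 bases before the start) were read from a RefSeq table on GRCm38.p6 and both strands were searched. In all 26 alternatives were run. Arrays give no counts, so their number limits the precision.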

Additional observations from a re-analysis of the deposited data

Results flagged for a closer look

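The effect of VPA at 64 h differed from that at 4 h in 9 receptor genes, by the test of the difference itself in limma (adjusted p under 0.05, 3 arrays a group). This is 21.4% of the members, where 15.9% of all tested probe sets passed. The difference was -1.45 for Thra, -0.92 for Rarg, -0.92 for Nr2f2, -0.78 for Nr1h3, -0.71 for Rara, -0.66 for Nr1h4 and -0.48 for Rxra, 0.52 for Rarb and 0.44 for Rorb on the log2 scale. For Thra and Rara the larger effect was an increase at 4 h, and for Nr2f2, Nr1h3 and Nr1h4 it was a decrease at 64 h. Rarg was higher with VPA at 4 h and lower at 64 h, each with an adjusted p under 0.05, but its 4 h effect was 0.007 with a Gapdh probe set. The adjusted p of the difference rose above 0.05 for Rarb without any 1 of 11 arrays (0.0513 to 0.119) and for Rorb without any 1 of 6 arrays (0.0671 to 0.0912). With same-numbered arrays of a time as pairs, Nr3c2 (0.56) and Nr2f1 (-0.55) passed too. These tests use the same 12 control and VPA arrays, so the 9 differences are not independent of each other.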

How the results depend on the processing

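Of 18 changes of members past the threshold, 10 remained past it under each of the alternatives that gave them (up to 26) and none reversed. The other 8 fell below 2-fold under at least 1 alternative, each of them when arrays were centred on housekeeping genes or on 1 of the 25 probe sets of Gapdh, and Nr3c2 and Nr1h3 with VPA at 64 h also when single arrays were left out. Those centrings moved the median of all probe sets from Ctrl4h to Ctrl64h by -0.372 and -0.557, and all tested probe sets then split into 735 rises and 2088 falls or 525 and 3927, beside 1564 and 868. With a Gapdh probe set the number of members past the threshold was 3 instead of 1 from 4 to 16 h, 8 instead of 5 from Ctrl4h to Ctrl64h and 7 instead of 4 from VPA4h to VPA64h. For VPA64h against Ctrl64h it was 2, and 1 with arrays centred on the median, on housekeeping genes or on a Gapdh probe set and with array weights. Leaving out 1 array at a time gave 0 to 2 there, 0 without replicate 2 of Ctrl64h and 0 without replicate 1 of VPA64h. It gave 2 to 4 for VPA4h against Ctrl4h, 4 without replicate 3 of Ctrl4h when Nr4a1 and Nr4a3 were added, and 1 to 2 for the difference of the VPA effects. Leaving out 1 array kept the counts at 1 from 4 to 16 h, 3 from 16 to 64 h, 5 to 6 from Ctrl4h to Ctrl64h and 4 to 5 from VPA4h to VPA64h. With the replicate number as a block over all times the counts of members past 2-fold were the same in all 7 comparisons, 1, 3, 5, 2, 2, 4 and 1. As a block within each time they were 2 for VPA at 4 h, 2 at 64 h and 1 for the difference. At any size the block within each time gave 17 members at 4 h, 12 at 64 h and 11 for the difference, beside 15, 10 and 9, through Nr4a1, Nr3c2, Pgr and Nr2f1, and changed no other call of the VPA effects. Across times the replicate numbers were not taken as pairs. There r ranged from -0.238 to 0.233 for arrays of the same number and reached 0.351 for arrays of different numbers. The -0.238 and the 0.351 came from Ctrl16h. Its 2 arrays deviate from their mean by equal and opposite amounts, so their r values cannot test pairing. Between 4 h and 64 h arrays r was -0.014 to 0.233 for the same number and -0.224 to 0.157 for different numbers. Whether the numbers mark pairs across times was not tested. With 2 or 3 arrays a group, small changes can be missed.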
